A study of Mus musculus with 30 samples.

Results

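The 8 genes described here encode the receptor for colony stimulating factor 1 (Csf1r), its ligands (Csf1 and Il34), the lipid-sensing receptor TREM2 (Trem2) with its adaptor DAP12 (Tyrobp), and 3 signalling proteins used downstream of these receptors (Syk, Plcg2 and Inpp5d). They were taken by gene symbol from a mouse expression table of 24888 rows, where each symbol occurred once. A gene entered the tests if 2 or more of the 30 libraries had it at 1 FPKM or higher, which held for 7 of the 8 and for 11759 genes in all. Il34 did not pass and was not tested.

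CSF1 receptor is a receptor tyrosine kinase that microglia need to survive and to divide, and CSF1 and interleukin 34 both bind it. TREM2 recognises lipids and lipoproteins. It has no signalling tail of its own and relies on DAP12, an adaptor whose cytoplasmic motif (the ITAM) recruits the kinase SYK once it is phosphorylated. SYK in turn engages phospholipase C gamma 2, the product of Plcg2, while SHIP1, the lipid phosphatase encoded by Inpp5d, removes a phosphate from the PI3 kinase product and restrains the same pathway. DAP12 also couples to CSF1 receptor signalling, so the pair of receptors share part of their machinery. After nerve injury, CSF1 made by injured sensory neurons is known to act on microglia of the dorsal horn.

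Expression was profiled in cells selected for CD11b, taken from the caudal lumbar spinal cord of C57BL/6J mice, with full-length Smart-Seq2 libraries. The 9 controls were 2 naive libraries (no injury and no treatment), 4 libraries from mice given saline on the fixed schedule and 3 from mice given saline on the escalating schedule. The 14 nerve injury libraries came in pairs: transection of the sciatic nerve (SNT), sampled 1, 2, 4 and 7 days after injury; constriction of the nerve (CCI, chronic constriction injury), sampled on days 2 and 7; and spared nerve injury (SNI), sampled on day 7. Days after injury are written as dpi. Morphine was given chronically, either on the fixed schedule (4 libraries) or the escalating schedule (3 libraries). The labels used here give no age, sex, morphine dose or pooling of animals. Whether a library stands for its own animal is not said either, so a p-value here measures the spread between libraries, which may be technical. CD11b is also carried by monocytes, neutrophils and border macrophages. In bulk RNA, fewer cells of a type and less RNA per cell cannot be told apart.

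The microglial label was checked against 8 marker genes, all of which were above 0 in every library: P2ry12 ranged from 562 to 1550 FPKM and Tmem119 from 262 to 1443 FPKM. Summed neutrophil markers (10 genes) ranged from 1662 to 60795 FPKM, summed monocyte markers (8 genes) from 5.06 to 2563 FPKM and summed border macrophage markers (6 genes) from 2.11 to 36.6 FPKM. The libraries fell into 2 sets that the labels do not name. Cst3, a highly expressed microglial gene for a protease inhibitor, stood at 39503 to 95123 FPKM in 16 libraries and at 10120 to 20827 FPKM in the other 14, with none between. The first principal component of all genes except the 8 (39.2% of the variance) separated the same sets. The Cst3-high set held all 7 saline libraries, SNT at 1, 2 and 4 dpi, SNT_7dpi replicate 1 and escalating morphine replicates 2 and 3. The Cst3-low set held both naive libraries, SNT_7dpi replicate 2, all CCI and SNI libraries, all 4 fixed morphine libraries and escalating morphine replicate 1. The sets were drawn from the data and are not groups of the study. They differed with transcript length: in the Cst3-low set the median gene was lower by -0.61 (difference in mean log2(FPKM + 1), Cst3-low minus Cst3-high) among transcripts up to 0.75 kb and higher by 0.55 among those of 4 to 6 kb. Fixed morphine and fixed saline lie wholly in opposite sets, as do naive and saline controls, so treatment and set cannot be told apart in those comparisons.

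Of the 8 genes, 5 had an entry in the RefSeq promoter table used here (GRCm38.p6; 250 bases before to 50 bases after a start site), with 2 start sites for Syk. These windows were searched on both strands for GAGGAA, the core of the motif bound by PU.1, the transcription factor that defines the myeloid lineage. The motif was in 3 of the 6 windows, and in 28.3% of all 32851 windows of the same length. A match is a description of the letters, not a binding site. Windows are printed 5′ to 3′ on the gene's strand with each match in capitals, for Trem2 and Csf1, which moved in opposite directions under fixed morphine, and for Inpp5d, whose window held more matches than the others. The window of Trem2 (chr17:48346151-48346450, plus strand) held 1 match, on the opposite strand, that began 40 bases before the start site. The window of Inpp5d (chr1:87620062-87620361, plus strand) held 2 matches, 1 on each strand, that began 20 bases before and 3 bases after the start site. That of Csf1 (chr3:107760420-107760719, minus strand) held none.
Trem2: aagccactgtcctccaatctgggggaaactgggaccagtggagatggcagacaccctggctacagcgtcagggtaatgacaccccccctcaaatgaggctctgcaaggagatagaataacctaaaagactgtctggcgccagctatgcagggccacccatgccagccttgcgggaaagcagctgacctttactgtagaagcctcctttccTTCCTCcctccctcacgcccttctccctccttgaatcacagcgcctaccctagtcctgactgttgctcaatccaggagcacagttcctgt
Inpp5d: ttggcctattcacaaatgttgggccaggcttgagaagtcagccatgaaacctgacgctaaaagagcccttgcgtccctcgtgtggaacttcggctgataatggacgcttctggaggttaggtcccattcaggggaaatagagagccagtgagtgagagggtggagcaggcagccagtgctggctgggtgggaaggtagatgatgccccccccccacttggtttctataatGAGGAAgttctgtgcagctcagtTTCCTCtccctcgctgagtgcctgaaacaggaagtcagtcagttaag
Csf1: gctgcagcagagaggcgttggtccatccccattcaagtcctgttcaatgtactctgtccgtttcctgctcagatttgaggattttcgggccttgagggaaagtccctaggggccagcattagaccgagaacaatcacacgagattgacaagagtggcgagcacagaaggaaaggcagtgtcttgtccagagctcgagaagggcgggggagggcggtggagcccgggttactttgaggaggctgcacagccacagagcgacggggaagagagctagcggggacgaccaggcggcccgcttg

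Csf1r was among the highest genes of these cells, and its ligands were among the low ones. Csf1r (chromosome 18, 61100598 to 61132149, plus strand, by the GENCODE M21 annotation of GRCm38) ranged from 469 to 3380 FPKM with a median of 2219 and ranked 16 by mean FPKM among all rows. Csf1 (chromosome 3, 107741048 to 107760469, minus strand) ranged from 0 to 11.5 FPKM with a median of 2.59. Il34 (chromosome 8, 110741829 to 110805924, minus strand) was listed at 0 in 20 of 30 libraries and reached at most 0.288 FPKM, in SNT_7dpi replicate 2. FPKM is scaled by transcript length, but the library sets still differed with length. Levels of genes of unlike length can therefore be set side by side only roughly. A listed 0 can also be a failed estimate.

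The receptor-adaptor pair was also high, and the downstream enzymes were lower. Tyrobp (chromosome 7, 30413760 to 30417585, plus strand) ranged from 751 to 5590 FPKM with a median of 1860 and ranked 17. Trem2 (chromosome 17, 48346401 to 48354147, plus strand) ranged from 367 to 1496 FPKM with a median of 799 and ranked 43. Downstream, Inpp5d (chromosome 1, 87620312 to 87720507, plus strand) had a median of 132 FPKM and a range of 50.6 to 199. Plcg2 (chromosome 8, 117498291 to 117635142, plus strand) had a median of 58.0 FPKM and a range of 9.55 to 81.6, and Syk (chromosome 13, 52583173 to 52648792, plus strand) had a median of 28.5 FPKM and a range of 6.52 to 49.3. The order of medians was Csf1r, Tyrobp, Trem2, Inpp5d, Plcg2, Syk, Csf1 and Il34. The neighbours Csf1r and Tyrobp overlapped widely and changed order between libraries.

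**Figure D1:**
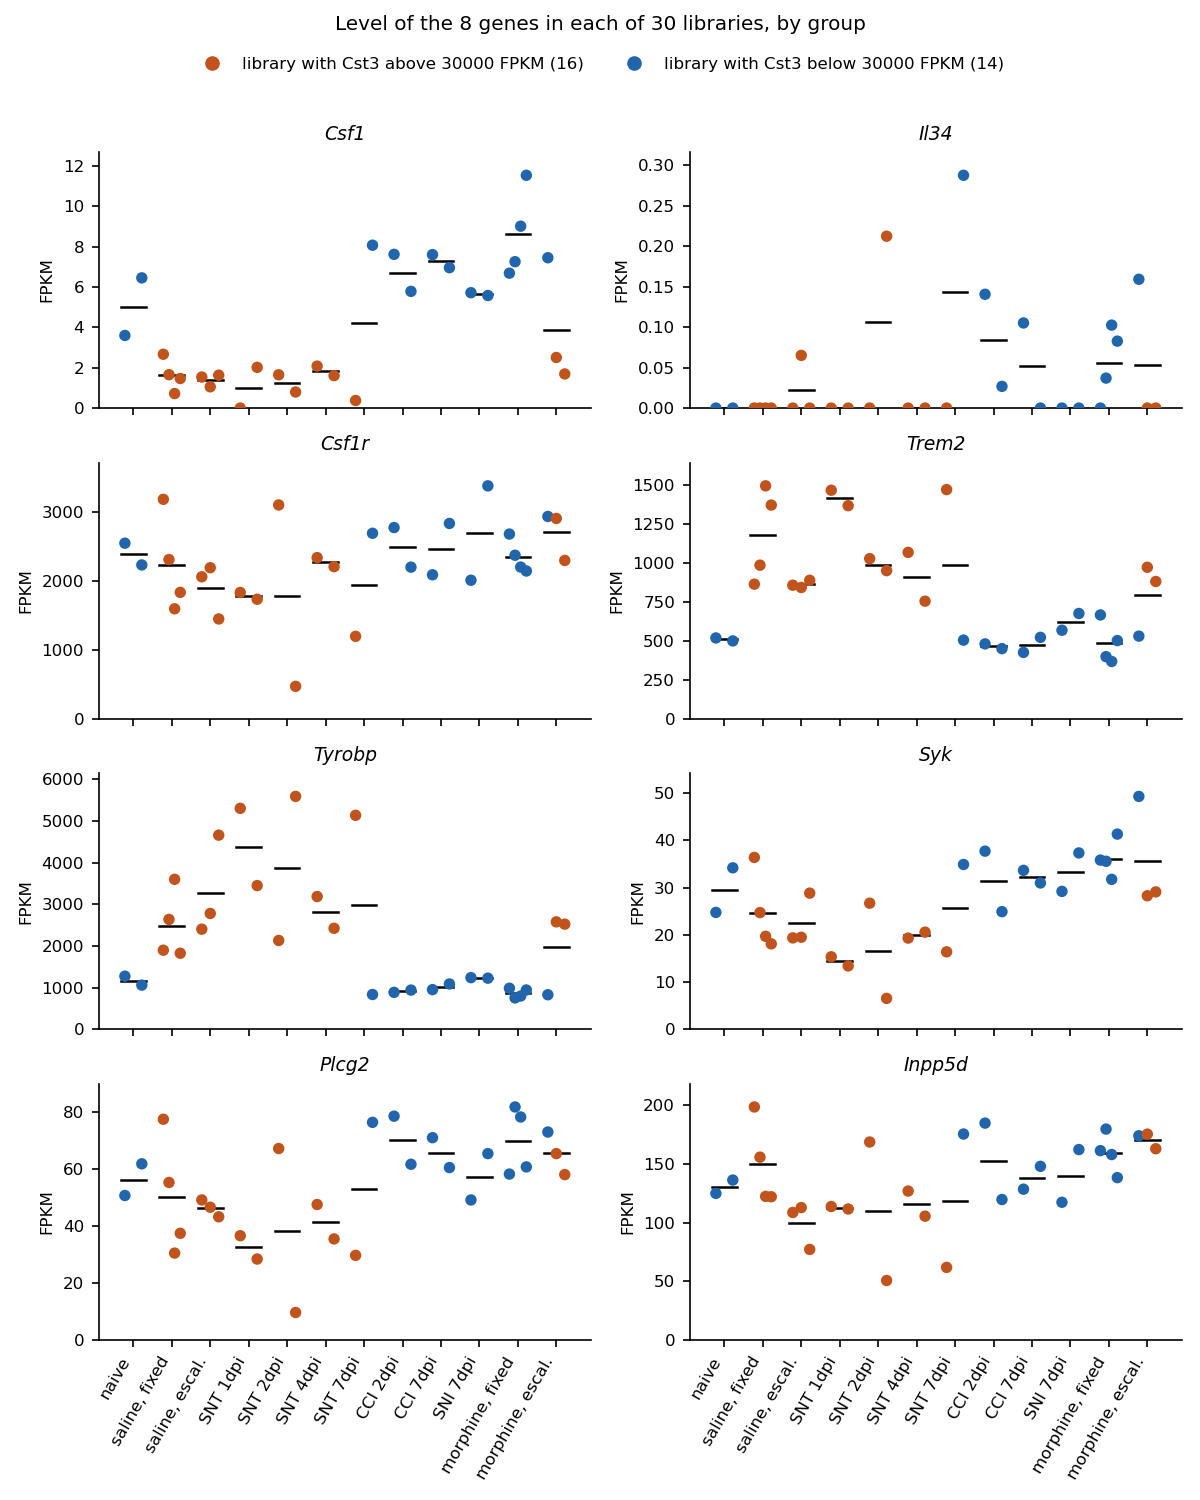
FPKM (linear axis from 0) of each gene in each of the 30 libraries, by group; each point is 1 library, the bar is the group mean, and colour marks libraries with Cst3 above or below 30000 FPKM. Csf1, Trem2 and Tyrobp separated by colour with no overlap (Tyrobp 1823 to 5590 against 751 to 1273 FPKM), while Csf1r, Syk, Plcg2 and Inpp5d overlapped.

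Under fixed-schedule morphine, Csf1 rose and both Tyrobp and Trem2 fell against fixed-schedule saline, and Csf1r was close to its saline level. Csf1 stood at 6.69, 7.25, 9.02 and 11.5 FPKM in the fixed morphine libraries and at 2.67, 1.65, 0.719 and 1.46 FPKM in the fixed saline libraries. Tyrobp stood at 983, 751, 796 and 942 FPKM under morphine and at 1897, 2636, 3599 and 1823 FPKM under saline. Trem2 stood at 666, 398, 367 and 501 FPKM under morphine and at 864, 986, 1496 and 1372 FPKM under saline. For each of these 3 genes every morphine library lay on one side of every saline library; groups without overlap were seen for 29.6% of all tested genes. In log2(FPKM + 1), Csf1 rose by 1.90 ± 0.34 (SE; limma, Benjamini-Hochberg adjusted p = 0.00606; means of 8.62 ± 2.18 and 1.63 ± 0.803 FPKM, SD, n = 4 each). Tyrobp fell by 1.47 ± 0.36 (limma adjusted p = 0.0170; 868 ± 112 against 2489 ± 826 FPKM). Trem2 fell by 1.29 ± 0.26 (limma adjusted p = 0.00812; 483 ± 135 against 1179 ± 302 FPKM). So 3 of the 7 tested genes passed the threshold of 0.05, where 18% of all tested genes passed it (13.6% higher and 4.46% lower). These were 1595 genes higher and 524 lower, a split that became 1039 and 783 with median-ratio scaling, 986 and 826 with quantile normalization and 3056 and 293 after rescaling to TPM. The share of all tested genes called also rested on single libraries: it was 7.91% without fixed saline replicate 5, 8.24% without fixed saline replicate 6, 6.44% without fixed morphine replicate 2 and 7.07% without fixed morphine replicate 3, where 2 of the 7 (3 of 7 without fixed saline replicate 6) passed.

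The other 4 genes did not pass. Syk stood at 35.8, 35.6, 31.7 and 41.3 FPKM under fixed morphine and at 36.4, 24.7, 19.7 and 18.1 FPKM under saline, a difference of 0.58 ± 0.24 (limma adjusted p = 0.108). Plcg2 stood at 58.1, 81.6, 78.1 and 60.6 FPKM and at 77.3, 55.1, 30.4 and 37.3 FPKM, a difference of 0.54 ± 0.24 (limma adjusted p = 0.131). In both genes fixed saline replicate 3 lay among the morphine libraries. Without it the differences were 0.77 for Syk (limma adjusted p = 0.0356) and 0.78 for Plcg2 (limma adjusted p = 0.0263), which took the count from 3 to 5 of 7, where 18.4% of all tested genes passed. Csf1r, at 2144 to 2680 FPKM under morphine and 1595 to 3185 FPKM under saline, differed by 0.12 ± 0.25, and Inpp5d, at 138 to 180 and 122 to 199 FPKM, by 0.11 ± 0.19. The median of all tested genes was itself 0.22 higher under fixed morphine. With median-ratio scaling, which brings that median to 0.04, Csf1r and Inpp5d took the other sign (-0.11 and -0.12), while Csf1 (1.70), Tyrobp (-1.70) and Trem2 (-1.52) kept theirs.

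The direction of the 3 called genes was also the direction in which the library sets differ, and the libraries that gave the calls are part of these sets. Csf1 was 3.60 to 11.5 FPKM in the 14 Cst3-low libraries and 0 to 2.67 FPKM in the 16 Cst3-high libraries, whatever their group. Tyrobp was 751 to 1273 FPKM in Cst3-low and 1823 to 5590 FPKM in Cst3-high libraries, and Trem2 was 367 to 676 and 755 to 1496 FPKM. These 3 of the 7 tested genes did not overlap between the sets, against 4.44% of all tested genes. A fit with the set as a covariate, added after the data were seen, gave 0.44 for Csf1, 0.15 for Tyrobp and -0.49 for Trem2 (limma adjusted p = 1.0 for each), and rests for the set effect on the escalating morphine libraries. A fit after removal of each library's trend with transcript length kept all 3 calls, at 1.43 for Csf1 (limma adjusted p = 0.00746), -0.88 for Tyrobp (0.0208) and -0.96 for Trem2 (0.0187). Tyrobp lost its call with quantile normalization (-0.90, limma adjusted p = 0.0761), without fixed saline replicate 5 (-1.27, limma adjusted p = 0.0580), without fixed morphine replicate 2 (-1.40, 0.0573) and without fixed morphine replicate 3 (-1.43, 0.0527). Marker counts here stand beside 4.46% lower and 13.6% higher among all tested genes. S100a8 and Camp, 2 of 10 neutrophil markers, were lower under fixed morphine. The summed level of the 10 overlapped between the groups, at 1662 to 17295 FPKM under morphine and 6896 to 27804 FPKM under saline. No neutrophil marker was listed at 0 throughout either group. Of 5 tested border macrophage markers, Pf4 was lower, and the summed level was 2.31 to 3.01 FPKM under morphine and 2.68 to 12.9 FPKM under saline. Pecam1, of 4 tested endothelial and mural markers, and Cd79a, of 4 tested B cell markers, were also lower. No neuronal or oligodendrocyte marker passed, but all 9 and all 7 tested had positive differences, with summed levels of 13.9 to 46.5 against 2.76 to 25.2 FPKM and of 135 to 228 against 69.6 to 150.3 FPKM. Among all tested genes the share with a positive difference ran from 17.3% (transcripts up to 0.75 kb) to 83.9% (4 to 6 kb). Of 8 microglial markers, Sall1 alone passed, higher by 0.77, and the summed level was 7701 to 10039 FPKM under morphine and 10444 to 12072 FPKM under saline. The part of these markers in the result was not tested.

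**Figure D2:**
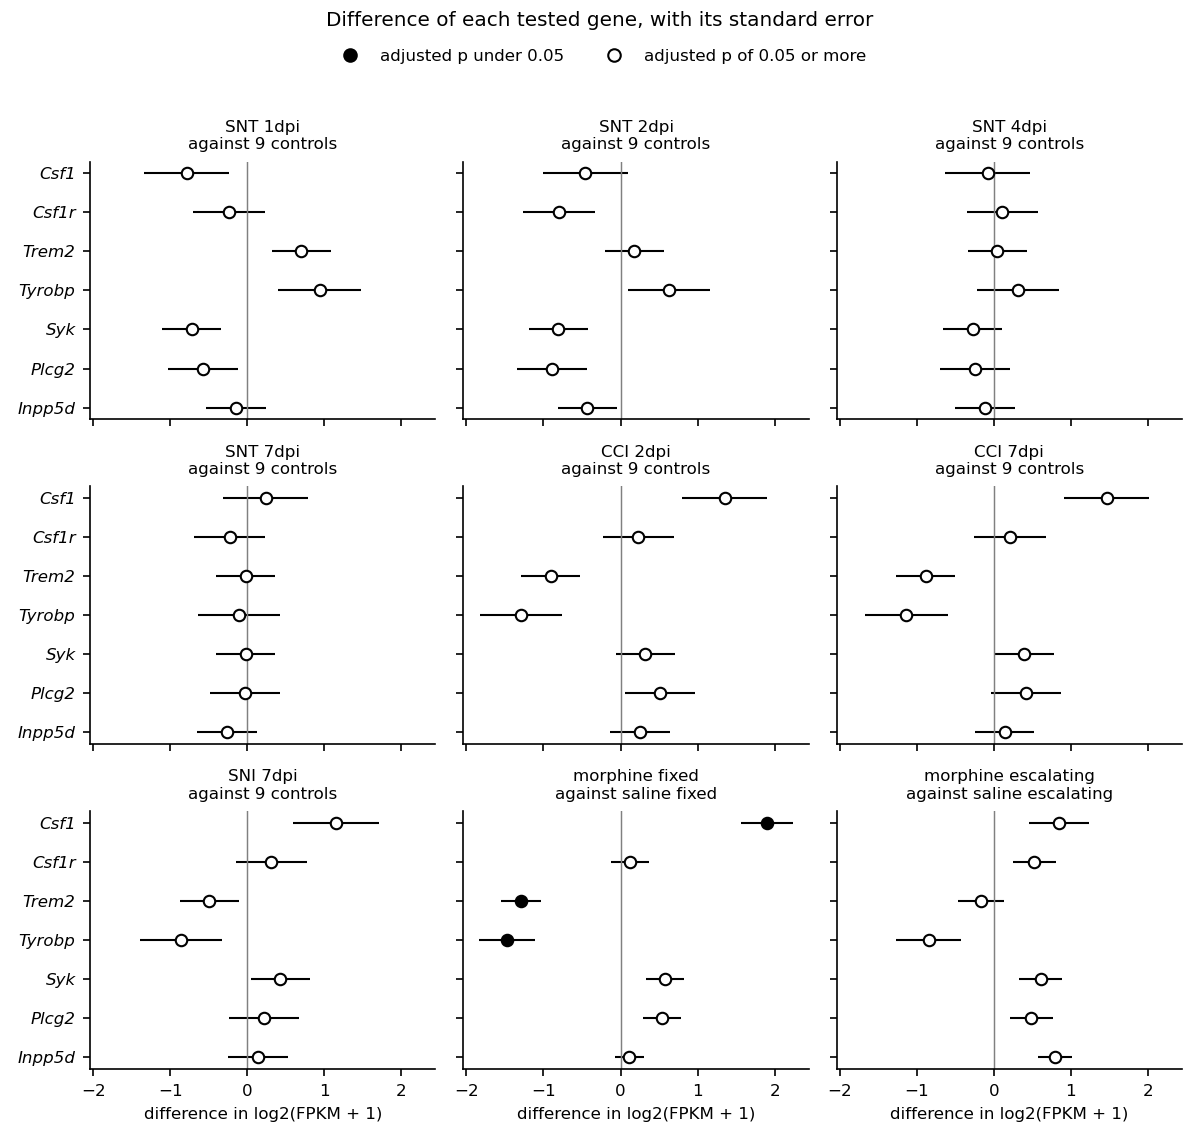
Difference in mean log2(FPKM + 1) of the 7 tested genes (points, with the standard error as a bar) in 7 nerve injury groups against the 9 controls and in 2 morphine groups against their saline groups; filled points passed an adjusted p of 0.05 in limma. Filled points occur in the fixed morphine panel alone, for Csf1 (1.90), Trem2 (-1.29) and Tyrobp (-1.47).

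**Figure D3:**
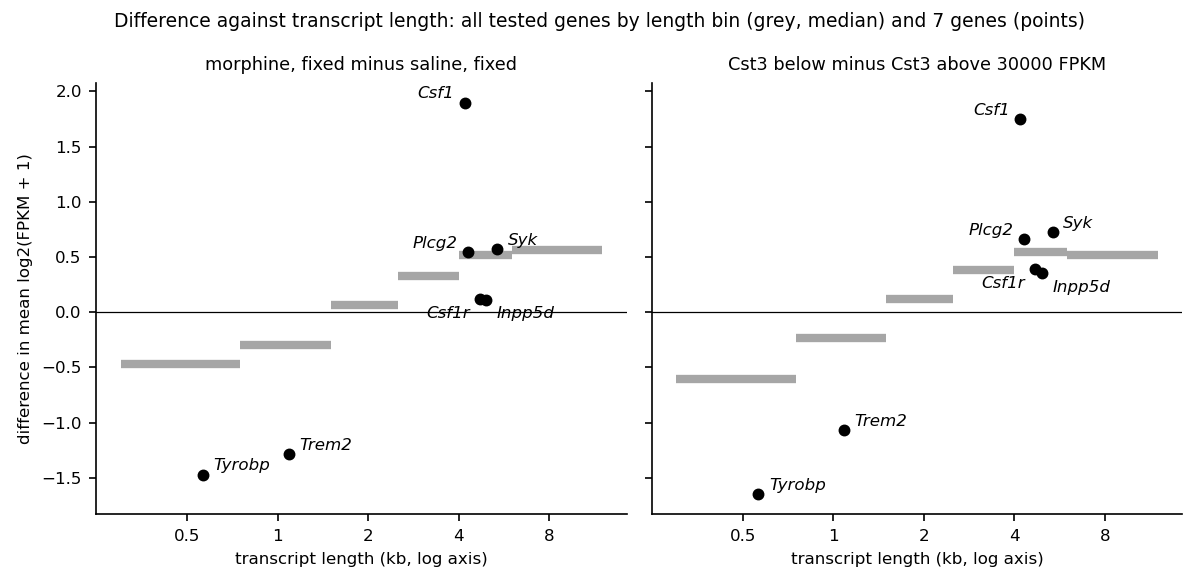
Difference in mean log2(FPKM + 1) against transcript length (log axis) for fixed morphine minus fixed saline (left) and Cst3-low minus Cst3-high libraries (right); grey bars are medians of all tested genes in a length bin and points are the 7 tested genes. The medians run from -0.47 to 0.56 on the left and from -0.61 to 0.55 on the right, and Csf1, Trem2 and Tyrobp lie farther from 0 than the median of their bin in both panels.

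The transcripts of the genes that fell were short: that of Tyrobp has 564 bases and that of Trem2 1088 bases, while those of Csf1, Plcg2, Csf1r, Inpp5d and Syk have 4176 to 5363 bases (GENCODE principal transcripts). Under fixed morphine the median difference of all genes was -0.47 for transcripts up to 0.75 kb, -0.30 for 0.75 to 1.5 kb and 0.52 for 4 to 6 kb. Syk and Plcg2 lay near the median of their length bin, and Csf1r and Inpp5d lay below it.

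On the escalating schedule none of the 7 tested genes passed, where 0.034% of all tested genes did (4 genes, with 2254 at an unadjusted p under 0.05). Inpp5d came nearest: it stood at 174, 175 and 163 FPKM under escalating morphine and at 109, 113 and 77.1 FPKM under escalating saline, a difference of 0.79 ± 0.22 (limma adjusted p = 0.102; means of 171 ± 6.83 and 99.5 ± 19.5 FPKM, SD, n = 3 each). Csf1r stood at 2936, 2907 and 2297 FPKM and at 2060, 2191 and 1447 FPKM, a difference of 0.53 ± 0.28 (limma adjusted p = 0.329). Csf1r, Csf1, Plcg2 and Inpp5d did not overlap between the groups, 4 of 7 genes, against 18.3% of all tested genes. Of these, Csf1 (7.45, 2.51 and 1.69 FPKM against 1.54, 1.05 and 1.63 FPKM) rested on replicate 1, the Cst3-low library, for most of its difference of 0.85 ± 0.39 (limma adjusted p = 0.258). Tyrobp showed the same split, with 828 FPKM in replicate 1 and 2577 and 2523 FPKM in replicates 2 and 3, against 2402, 2779 and 4659 FPKM under saline (-0.84 ± 0.42, limma adjusted p = 0.292). Trem2 differed by -0.17 ± 0.30.

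Within the Cst3-high libraries, which leave 2 escalating morphine libraries against the 3 saline libraries, the difference of Inpp5d was 0.78 and that of Csf1r 0.47. The same fit gave 0.36 for Csf1, -0.30 for Tyrobp and 0.10 for Trem2. None of these passed (limma adjusted p from 0.494 to 0.932). The fixed minus the escalating difference was also tested. On the fixed schedule treatment and library set coincide, while most escalating libraries are Cst3-high. Schedule and set therefore cannot be told apart in this test. None of the 7 genes passed, where 0.0085% of all tested genes did (1 gene), with Trem2 at -1.12 ± 0.39 (limma adjusted p = 0.323), Inpp5d at -0.68 ± 0.29 (0.381) and Csf1 at 1.05 ± 0.52 (0.451).

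After chronic constriction injury Csf1 was higher and Tyrobp and Trem2 lower than the mean of the 9 controls, but no gene passed the test. Csf1 stood at 7.62 and 5.78 FPKM at 2 dpi and at 7.61 and 6.96 FPKM at 7 dpi, against 0.719 to 6.45 FPKM (median 1.63) in the controls. Tyrobp stood at 885 and 939 FPKM at 2 dpi and at 950 and 1086 FPKM at 7 dpi, against 1059 to 4659 FPKM (median 2402) in the controls. Trem2 stood at 480 and 450 FPKM, and then 425 and 522 FPKM, against 499 to 1496 FPKM (median 864). The constriction values lay near one end of the control range, where the 2 naive libraries lie. At 2 dpi Tyrobp and Trem2 did not overlap with the controls (10.3% of all tested genes), and at 7 dpi Csf1 did not (9.33%). The differences at 2 dpi were 1.35 ± 0.55 for Csf1, -1.29 ± 0.53 for Tyrobp and -0.91 ± 0.38 for Trem2 (limma adjusted p of 0.422 to 0.423, where 0.0085% of all tested genes passed). At 7 dpi they were 1.47 ± 0.55, -1.14 ± 0.53 and -0.89 ± 0.38 (limma adjusted p of 0.360 to 0.494, where 0% passed).

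The naive libraries are the Cst3-low controls, and against them alone the constriction differences were smaller. At 2 dpi Csf1 differed from the naive pair by 0.39, Tyrobp by -0.35 and Trem2 by -0.13. At 7 dpi the values were 0.50, -0.19 and -0.11. Spared nerve injury gave the same picture for Csf1: 5.72 and 5.58 FPKM at 7 dpi, a difference of 1.15 ± 0.55 from all controls (limma adjusted p = 0.999, where 0% of all tested genes passed) and of 0.18 from the naive pair. Tyrobp, at 1238 and 1225 FPKM, and Trem2, at 568 and 676 FPKM, differed from the naive pair by 0.09 and 0.28. For Csf1r, Syk, Plcg2 and Inpp5d the constriction and spared injury differences from all controls ran from 0.14 to 0.51, and none passed.

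Early after nerve transection the direction was the opposite: Tyrobp and Trem2 were high and Syk low, again with no gene past the threshold. At 1 dpi Tyrobp stood at 5304 and 3449 FPKM, a difference from the 9 controls of 0.94 ± 0.53 (limma adjusted p = 0.378, where 0.017% of all tested genes passed). Trem2 stood at 1467 and 1368 FPKM, a difference of 0.70 ± 0.38 (limma adjusted p = 0.361). Syk stood at 15.3 and 13.4 FPKM, below every control (18.1 to 36.4 FPKM; 6.23% of all tested genes did not overlap), a difference of -0.72 ± 0.38 (limma adjusted p = 0.348). These libraries are both Cst3-high, and against the 7 Cst3-high controls, all saline, the differences were 0.67 for Tyrobp, 0.48 for Trem2 and -0.65 for Syk. With each library's trend with transcript length removed, the differences from the 9 controls were 0.21 for Tyrobp, 0.49 for Trem2 and -0.32 for Syk. Csf1 was listed at 0 in replicate 1 and stood at 2.02 FPKM in replicate 2. Replicate 1 had the fewest genes at 1 FPKM or more of all libraries (8005).

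At 2 dpi the 2 transection libraries stood far apart. Csf1r was 3103 FPKM in replicate 1 and 469 FPKM in replicate 2, Plcg2 was 67.0 and 9.55 FPKM, Syk was 26.7 and 6.52 FPKM, and Inpp5d was 169 and 50.6 FPKM. Tyrobp went the other way, at 2130 and 5590 FPKM, and Trem2 stood at 1028 and 951 FPKM. Replicate 2 held the lowest Csf1r, Syk, Plcg2 and Inpp5d and the highest Tyrobp of the 30 libraries, and was among the 3 with the fewest genes at 1 FPKM or more. Its summed neutrophil markers were 20294 FPKM against 2984 FPKM in replicate 1, and its summed microglial markers 6522 against 13398 FPKM, the lowest and the highest of all; the part of these in the values was not tested. None of the 7 genes passed at 2 dpi, where 0% of all tested genes did (862 at an unadjusted p under 0.05). With replicate 2 alone, whose spread is then assumed from the other groups, Csf1r (-2.16), Syk (-1.75) and Plcg2 (-2.23) passed, as did 9.72% of all tested genes.

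At 4 dpi the 2 transection libraries were close to each other and to the controls: Csf1r stood at 2338 and 2207 FPKM, Tyrobp at 3186 and 2423 FPKM and Trem2 at 1068 and 755 FPKM. The largest of the 7 differences was that of Tyrobp, at 0.32 ± 0.53, and none passed (0% of all tested genes). At 7 dpi the 2 libraries fell in opposite sets. Csf1 stood at 0.376 and 8.07 FPKM, Tyrobp at 5136 and 833 FPKM, Trem2 at 1472 and 504 FPKM and Csf1r at 1195 and 2691 FPKM. Their means were within 0.26 of the controls in all 7 genes, and none passed (0.204% of all tested genes). Over the 4 transection days no gene passed an F-test (limma adjusted p from 0.687 to 0.971, where 0.0085% of all tested genes passed), and over the mean of the 7 injury groups none passed either (0%), with Csf1 at 0.41 ± 0.30 and the other 6 between -0.22 and -0.06. Without SNT_2dpi replicate 1, Csf1r and Plcg2 passed the F-test over days, as did 4.64% of all tested genes.

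The kinds of control differed in the same 3 genes, short of the threshold. Csf1 was 5.03 ± 2.02 FPKM in naive (n = 2), 1.63 ± 0.803 FPKM in fixed saline (n = 4) and 1.41 ± 0.309 FPKM in escalating saline libraries (n = 3). Tyrobp was 1166 ± 151, 2489 ± 826 and 3280 ± 1209 FPKM, and Trem2 was 509 ± 13.5, 1179 ± 302 and 863 ± 23.5 FPKM. Both naive libraries lay below all 7 saline libraries in Tyrobp and Trem2 and above them in Csf1. The naive libraries are Cst3-low and the saline libraries Cst3-high. These 3 genes do not overlap between the sets (4.44% of all tested genes), so their separation here was already given by the sets. Kind of control and set cannot be told apart. The limma F-test over the 3 kinds gave an adjusted p of 0.203 for Trem2, 0.363 for Tyrobp and 0.413 for Csf1 (0.102% of all tested genes passed). Csf1r was 2390 ± 223, 2231 ± 702 and 1899 ± 397 FPKM, which differed by less than the spread within fixed saline.

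Ratios of genes within a library cancel a scale factor of the whole library, but not its trend with transcript length. The transcript of Tyrobp has 564 bases and that of Csf1r 4701. Under fixed morphine the median difference of all genes was -0.47 up to 0.75 kb and 0.52 for 4 to 6 kb. The part of this trend in the ratios was not tested. The log2 ratio of Csf1r to Tyrobp averaged 1.44 ± 0.194 (SD, n = 4) under fixed morphine and -0.15 ± 0.792 under fixed saline, so Csf1r exceeded Tyrobp in all 4 morphine libraries and in 2 of 4 saline libraries. The difference of 1.59 gave p = 0.0286 in a two-sided exact permutation test, the smallest that 4 against 4 can give, and 0.129 after adjustment over the 9 ratio tests. On the escalating schedule the difference was 1.37 (exact permutation p = 0.10, the smallest that 3 against 3 can give; adjusted p = 0.30). Over 14 injury and 9 control libraries it was 0.16 (exact permutation test, adjusted p = 0.894). By library set the ratio was 1.35 ± 0.313 in the 14 Cst3-low and -0.69 ± 1.11 in the 16 Cst3-high libraries.

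**Figure D4:**
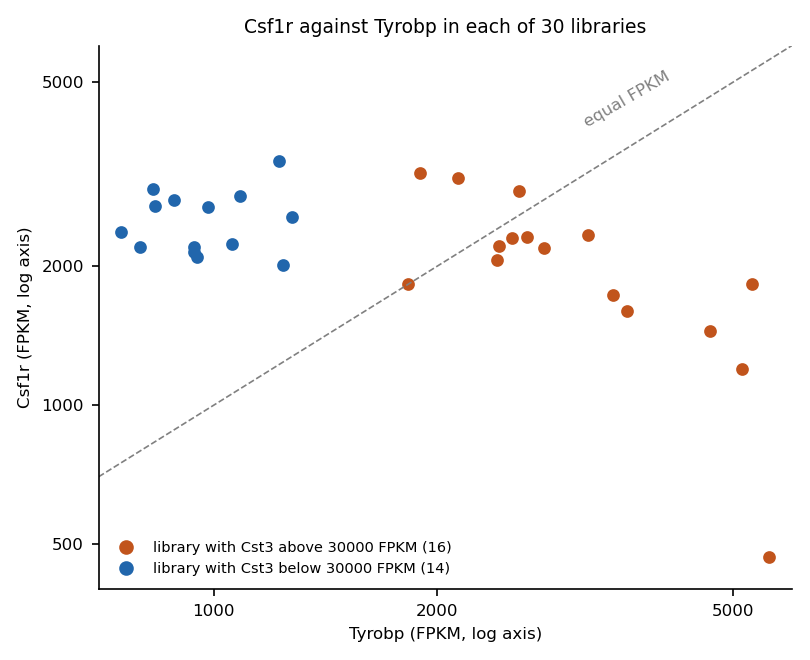
Csf1r against Tyrobp in FPKM (log axes), 1 point per library, coloured by library set, with a dashed line at equal FPKM. All 14 Cst3-low libraries lie above the line, with Tyrobp under 1273 FPKM, and the Cst3-high libraries run across it to SNT_2dpi replicate 2 at 5590 FPKM of Tyrobp and 469 FPKM of Csf1r.

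The ratio of Trem2 to Tyrobp, receptor to adaptor, moved less: the log2 ratio averaged -0.88 ± 0.230 under fixed morphine and -1.06 ± 0.447 under fixed saline (difference 0.18, exact permutation test, adjusted p = 0.823). The ratio of the phosphatase to the kinase, Inpp5d to Syk, was lower under fixed morphine, at 2.14 ± 0.276 against 2.62 ± 0.128 (difference -0.48, exact permutation p = 0.0286, adjusted p = 0.129). On the escalating schedule that ratio differed by 0.17 (exact permutation test, adjusted p = 0.894). By set it was 2.14 ± 0.204 in Cst3-low and 2.54 ± 0.398 in Cst3-high libraries.

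Across the 30 libraries Tyrobp and Trem2 ran together, and so did Csf1r, Syk, Plcg2 and Inpp5d. Pearson's r of log2(FPKM + 1) was 0.88 between Tyrobp and Trem2, and 0.38 and 0.63 within the Cst3-high and Cst3-low sets. It ran from 0.77 to 0.91 among Csf1r, Syk, Plcg2 and Inpp5d, with 0.91 for Syk and Plcg2 and 0.89 for Csf1r with Plcg2 and with Inpp5d. Among those 4 genes it was 0.75 to 0.94 within the Cst3-high set and 0.20 (Csf1r with Plcg2) to 0.76 (Plcg2 with Inpp5d) within the Cst3-low set. Csf1 ran against Tyrobp at -0.94, and at -0.69 and -0.68 within the sets. These values describe 30 libraries that share the set split and the length trend, and carry no p. With the length trend removed, r was 0.82 for Tyrobp and Trem2, -0.88 for Csf1 and Tyrobp, 0.74 for Syk and Plcg2 and 0.26 for Syk and Inpp5d.

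Among genes that averaged 5 FPKM or more, the 3 most like each gene by Pearson's r over the 30 libraries were Spg20 (0.95), Cmtm6 (0.94) and Itm2c (0.94) for Csf1r, and Sbno2 (0.95), Hipk1 (0.95) and Pomgnt1 (0.95) for Csf1. For Tyrobp they were Mcee (0.97), Cox4i1 (0.96) and Atp6v1f (0.96), and for Trem2 Cst3 (0.93), C1qa (0.93) and Lsm10 (0.93). For Syk they were Pacs1 (0.95), Myo1f (0.94) and Stat6 (0.94), for Plcg2 Cyfip1 (0.95), Copa (0.95) and Vav1 (0.95), and for Inpp5d Prex1 (0.94), Srgap2 (0.94) and Plcb3 (0.94). The transcripts most like Tyrobp and Trem2 had 0.703 to 1.04 kb, and those most like the other 5 genes had 2.23 to 8.03 kb. These r values also share the set split, which was drawn by Cst3. Within the Cst3-high set they ran from 0.61 (Trem2 with Cst3) to 0.98 (Csf1r with Spg20). Within the Cst3-low set they ran from 0.43 (Csf1 with Pomgnt1) to 0.95 (Syk with Myo1f).

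Other genes of the pathway were counted by role from a list of 103, of which 98 were tested. Under fixed morphine 29 of 98 passed (29.6%, against 18% of all tested genes), 22 higher and 7 lower, and the median difference was 0.24 against 0.22 for all tested genes. The split was 17 and 4 with quantile normalization, 16 and 8 with median-ratio scaling, 33 and 4 after rescaling to TPM and 10 and 7 with the length trend removed, where all genes split into 683 and 600. It was 10 and 4 without fixed saline replicate 5, 13 and 4 without fixed saline replicate 6, and 11 and 4 without fixed morphine replicate 2 or replicate 3. The counts by role stand beside 13.6% higher and 4.46% lower among all tested genes. Receptors and adaptors that pair with ITAM signalling were lower where they passed, 4 of 12 lower and 0 higher. These were Hcst, which encodes the DAP10 adaptor (12.6 ± 6.07 against 39.3 ± 21.5 FPKM, SD, n = 4; difference -1.52), Fcer1g, the Fc receptor common gamma chain (725 ± 47.8 against 1669 ± 361 FPKM; -1.18), Siglech (-1.05) and Cd33 (-0.73). Of 15 phosphatase and PI3 kinase genes, 8 were higher and 0 lower. Among them, Pik3cb, a PI3 kinase catalytic subunit, stood at 14.4 ± 0.860 against 2.85 ± 1.43 FPKM (difference 2.07) and the kinase gene Akt1 at 94.7 ± 14.3 against 25.0 ± 5.77 FPKM (1.90). Inppl1, which encodes SHIP2, Pik3ca, Pik3cd, Pik3ap1 and Akt2 rose by 0.72 to 1.31. The direction of these groups was checked under other scalings. Of the 12 receptors and adaptors, 4 were lower and 0 higher with median-ratio scaling, 2 and 0 with quantile normalization, 4 and 0 with the length trend removed, and 3 lower and 1 higher after rescaling to TPM. Of the 15 phosphatase and PI3 kinase genes, 7, 6, 3 and 10 were higher under the same settings and 0 were lower. Among all 11759 tested genes, 1039, 986, 683 (of 11318 with a length) and 3056 were higher under these settings. The lower ones were 783, 826, 600 and 293. With the library set as a covariate none of the 98 pathway genes passed, where 3 of all tested genes were higher and 1 lower.

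In the other roles the counts were small, and several lay near the 13.6% higher and 4.46% lower of all tested genes. Of 21 adaptors, Grb2 (1.26), Sos1 (1.32), Vav1 (0.63) and Vav2 (2.19) were higher and Blnk (-0.49) lower. Among 7 Src and Tec family kinases Fyn rose (2.10), and Lyn did not pass (median 146 FPKM over all libraries). Of 7 tested ligand, alternative receptor and processing genes, the sheddases Adam10 (0.90) and Adam17 (0.95), which cut TREM2 from the cell surface, were higher; both calls were lost with median-ratio scaling (limma adjusted p = 0.0620 and 0.0582) and with the length trend removed (0.194 and 0.186). Apoe, a TREM2 ligand, did not pass and ranged from 441 to 7313 FPKM over all libraries, and Ptprz1, another receptor for interleukin 34, did not exceed 1.44 FPKM. In the phospholipase and calcium branch Itpr3 (0.97), Nfatc3 (1.87) and Ppp3r1 (0.84) of 10 were higher, and in the Ras, Rac and MAP kinase branch 3 of 11 were higher, among them Mapk3 (1.49). Of 10 genes listed as transcription factors, Runx1 (0.77) was higher, a call lost with quantile normalization, median-ratio scaling and the length trend removed (limma adjusted p = 0.146, 0.118 and 0.499), and Spi1, which encodes PU.1 (160 ± 10.4 against 258 ± 63.2 FPKM; -0.65), and the kinase gene Gsk3b (-1.14) were lower; the call of Spi1 was lost with quantile normalization (0.0889). None of 5 other receptor tyrosine kinase and CSF receptor genes passed, nor did Ptpn6, the phosphatase SHP-1 (median 177 FPKM).

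Of the 29 calls, 12 (9 higher and 3 lower) passed in each of 5 other settings (quantile normalization, median-ratio scaling, rescaling to TPM, array weights and the length trend removed) and in each of the 8 fits that left out 1 library. Among these were Hcst, Siglech, Gsk3b, Grb2, Sos1, Vav2, Fyn, Pik3cb, Akt1, Nfatc3 and Mapk3. None passed with the library set as a covariate. How many of all tested genes passed in all of these settings was not counted, so the 12 have no share to stand beside. The settings left out the fit of all 30 libraries. They also left out the fit with the replicate number as a block, where 0 of all tested genes passed. All 29 pathway genes had the sign that Cst3-low libraries have against Cst3-high ones. The libraries that gave the calls are part of these sets, so this agreement was largely fixed in advance. Between the sets, 15 of the 29 (12 higher and 3 lower) did not overlap, against 4.44% of all tested genes. The 29 were chosen on some of the same libraries. The 22 higher genes had a median transcript length of 4.80 kb and the 7 lower genes 2.10 kb. In the escalating schedule, each injury group and the 4 transection days, 0 of the 98 passed, and over the kinds of control 1 did in the limma F-test.

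**Figure D5:**
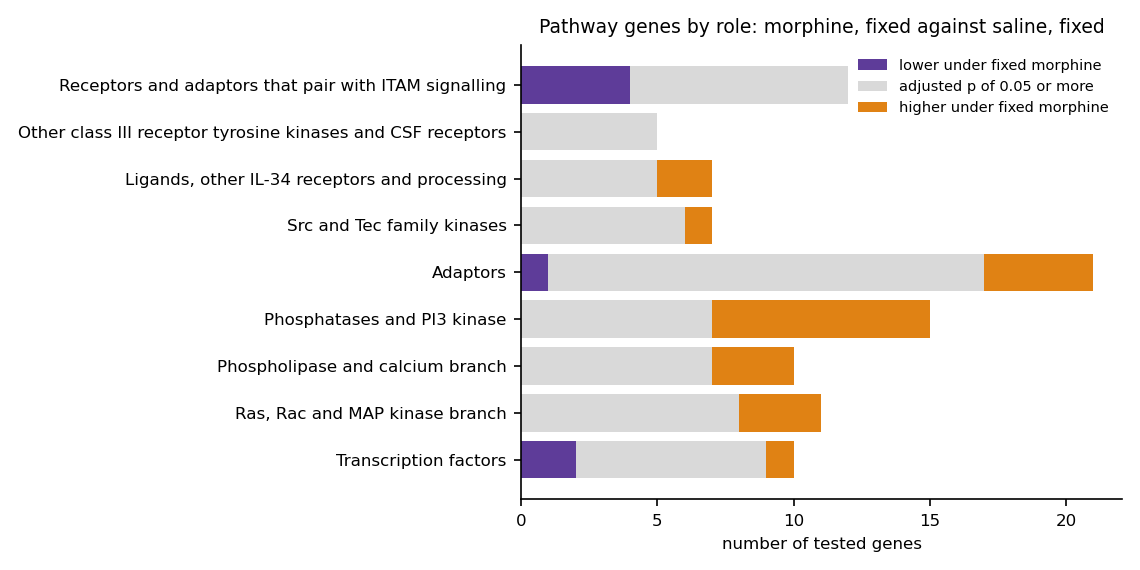
Number of tested pathway genes by role (bars, linear axis from 0) that passed an adjusted p of 0.05 in limma as higher or lower under fixed morphine than under fixed saline, or did not pass. Lower calls lie mostly among receptors and adaptors that pair with ITAM signalling (4 of 12), and higher calls are most frequent among phosphatases and PI3 kinase genes (8 of 15).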

How the data were processed

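The authors deposited 1 table of FPKM values, that is, fragments divided by transcript length and by the library's total, with a column for each of the 30 libraries. Per the submitters' processing notes, the build was mm10 and the tools were featureCounts 1.4.6, HISAT2 2.0.5.1, DESeq2 and Cufflinks 2.2.1; the tool that made the FPKM values and the annotation are not given in the sources used here. No counts or depth were used, so no counting interval is given; column sums ran from 299828 to 501707, and 8005 to 10427 genes were at 1 FPKM or more per library. The table held 0 columns of no sample.

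From these values, 826 rows were dropped because their 281 symbols occur more than once, and a gene was kept if 2 or more libraries had it at 1 FPKM or higher (11759 genes). Differences in log2(FPKM + 1), which understate the change of low genes, were tested two-sided in R 4.3.3 by limma-trend (limma 3.58.1), with Benjamini-Hochberg adjustment over all tested genes. Injury groups were compared with all 9 controls as 1 group, in a fit of 23 libraries; morphine groups with their saline groups, in a fit of 14; kinds of control in a fit of all 30. Injury comparisons share their controls. Positions and principal transcript lengths came from GENCODE M21 (GRCm38), promoters from RefSeq. The 8 genes, the pathway list and the marker lists were chosen with earlier results of these data known. The 8 genes were named in every comparison, pathway genes where they passed plus 9 by level, and the 3 genes most like each by correlation. The split of libraries by Cst3 at 30000 FPKM, and fits with it or with the length trend removed (11318 genes with a length), were added after the data were seen. Python 3.11.15 with scipy 1.17.1 ran the exact permutation tests. The procedure was tested on simulated data. Values of some single pathway genes are not reported here, and the counts by role include them.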

Additional observations from a re-analysis of the deposited data

Results flagged for a closer look

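Csf1 in the 9 controls was highest in naive replicate 2, at 6.45 FPKM, a gap from the others (0.719 to 3.60 FPKM) wider than expected for 9 values. The next value, 3.60 FPKM, was the other naive library. Il34 in the 9 controls was highest in escalating saline replicate 8, at 0.0651 FPKM, with the other 8 listed at 0. These were 2 of 32 checks for a library far from the rest of its group, and chance alone gives about 1 in 20. With the other 8 at 0, any Il34 value above 0 would have been flagged, so that rate does not hold for Il34. The Csf1 gap was 0.498 of the range, against a limit of 0.493, in a group that holds both library sets.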

How the results depend on the processing

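The count of 3 called genes under fixed morphine was 5 after rescaling to TPM and with array weights (Syk and Plcg2 added in both, where 28.5% and 37% of all tested genes passed), and 0 with the library set as a covariate, where Tyrobp was reversed at 0.15; TPM rescaling also moved the median of all genes from 0.22 to 0.53, and the cause of the other changes was not tested. Over all tested genes the 2119 calls under fixed morphine became 1135 in a fit of all 30 libraries, 1283 with the length trend removed and 4 with the set as a covariate. Quantile normalization took Tyrobp to -0.90 (limma adjusted p = 0.0761). Leaving out 1 library at a time gave 2 to 5 called genes under fixed morphine, 0 to 3 at SNT_2dpi and 0 to 2 over the 4 transection days; without SNT_2dpi replicate 1 the counts were 3 and 2. Array weights gave 3 called genes (Csf1, Tyrobp and Trem2) at CCI_7dpi and 3 over the kinds of control, against 0 without them, where 9.08% and 8.78% of all tested genes passed. None of the 9 ratio tests passed under the alternatives run; beside the injury values the 6 on morphine could not pass, so this says nothing about their stability. Without SNT_1dpi replicate 2, 1221 of all tested genes passed at that day (2 with it), and without SNT_7dpi replicate 2, 1006 (24 with it), and without escalating saline replicate 8, 465 passed on the escalating schedule (4 with it), with none of the 7 among them.

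With the replicate number as a block, fixed morphine numbers 3 and 4 against the same saline numbers gave 0 called genes (Csf1 1.56, Tyrobp -1.19, Trem2 -0.97; limma adjusted p from 0.456 to 0.476) and 0 of all tested genes. The labels do not say that libraries with the same number belong together, and the saline numbers only continue the numbering of the controls. Same-numbered libraries correlated at -0.26 here and at -0.43 to 0.22 over 28 pairs of injury and naive groups, 4 of them over 0.1. With 2 libraries on each side, these values cannot decide whether the numbers pair the libraries. In the injury fits the block dropped the saline libraries, whose numbers occur once, and left the 2 naive libraries as controls. There and over the transection days it changed no call of the 7 genes. Over all tested genes, SNT_7dpi went from 24 calls to 0 and SNT_1dpi from 2 to 0. CCI_2dpi went from 1 to 0 and SNT_4dpi from 0 to 1. The naive controls alone, without the block, gave 0, 2, 0 and 1 calls in the same order. No paired analysis was possible for escalating morphine or the kinds of control because they share fewer than 2 numbers. The number of libraries, 2 to 4 a group, limits what could be detected, and depth is unknown.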
